A study of Mus musculus with 18 samples.

Results

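Mouse induced pluripotent stem cells (iPSC) that lack Dnmt3a and Dnmt3b, the enzymes that place new methyl groups on DNA, were profiled at a stage when the labels record signs of differentiation. They were hybridised beside control iPSC on 12 of the 18 Agilent 2-colour arrays of the study, and those 12 arrays, chosen by the control line named in their titles, are described here. A channel of each array held total RNA of Dnmt3ab-deficient clone 8, A6 or B2. The other held total RNA of control iPSC line 3, 4, 5 or 6, so that each of the 3 clones met each of the 4 lines once. The control RNA was in Cy5 on 9 arrays and in Cy3 on 3. All cells had been grown under mouse embryonic stem cell conditions on irradiated mouse embryonic fibroblast (MEF) feeders, and were passaged on gelatin with no new feeders before RNA was taken. The labels give neither strain, nor passage, nor the deleted exons, nor how the control lines were made, and they leave the extent of differentiation unstated. Per the labels, the differentiating channels were left out of the study's own published statistics. The other 6 arrays held the same clones without that note, beside V6.5 embryonic stem cells (ESC) or MEF. The series asks whether de novo methylation is needed for reprogramming; the contrast described here shows how these cultures differed from control iPSC.

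Extra-embryonic endoderm lines the yolk sac and starts as primitive endoderm, in which Gata6 and Sox17 are defining transcription factors. Primitive endoderm gives visceral endoderm, an absorbing and secreting epithelium that takes up nutrients through cubilin and megalin, and parietal endoderm, which lays down a thick basement membrane of laminin and type IV collagen. Pluripotent cells are held by Pou5f1, Nanog and Sox2, and Nodal and Fgf signals move them towards a primed epiblast state.

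Endoderm markers pointed the same way on 11 of the 12 arrays. On each of these the 5 endoderm genes Gata6, Sox17, Foxa2, Srgn and Cubn were brighter in the clone channel, and the median of their log2 ratios (clone over control line) lay between 1.74 and 4.49. The labels name no cell type, and these 5 genes are among the 14 largest rises of these data. Their higher clone signal is therefore no check of the label. The array labelled clone 8 over control line 5 differed from the other 11. Its ratios were -0.28 for Gata6, -0.37 for Sox17, -0.30 for Foxa2, -0.38 for Srgn and -0.71 for Cubn, and Dnmt3a, which was lower in the clone channel of the other 11 arrays (-2.20 to -1.42), stood at 0.05. Across 24862 genes its ratios correlated at 0.878 with the values of control line 6 minus those of control line 5, at 0.871 with line 6 minus line 4, at 0.854 with line 6 minus line 3, and at 0.0771 with the labelled pair as estimated from the remaining arrays. Its lowest correlation across genes with another of the arrays was -0.662. Because of that, differences below are those of all 12 arrays, as the labels have it, unless the 11 others are named; the leading genes and the list counts are given for both, and levels per RNA are those of the 11. The cause was not tested.

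**Figure D1:**
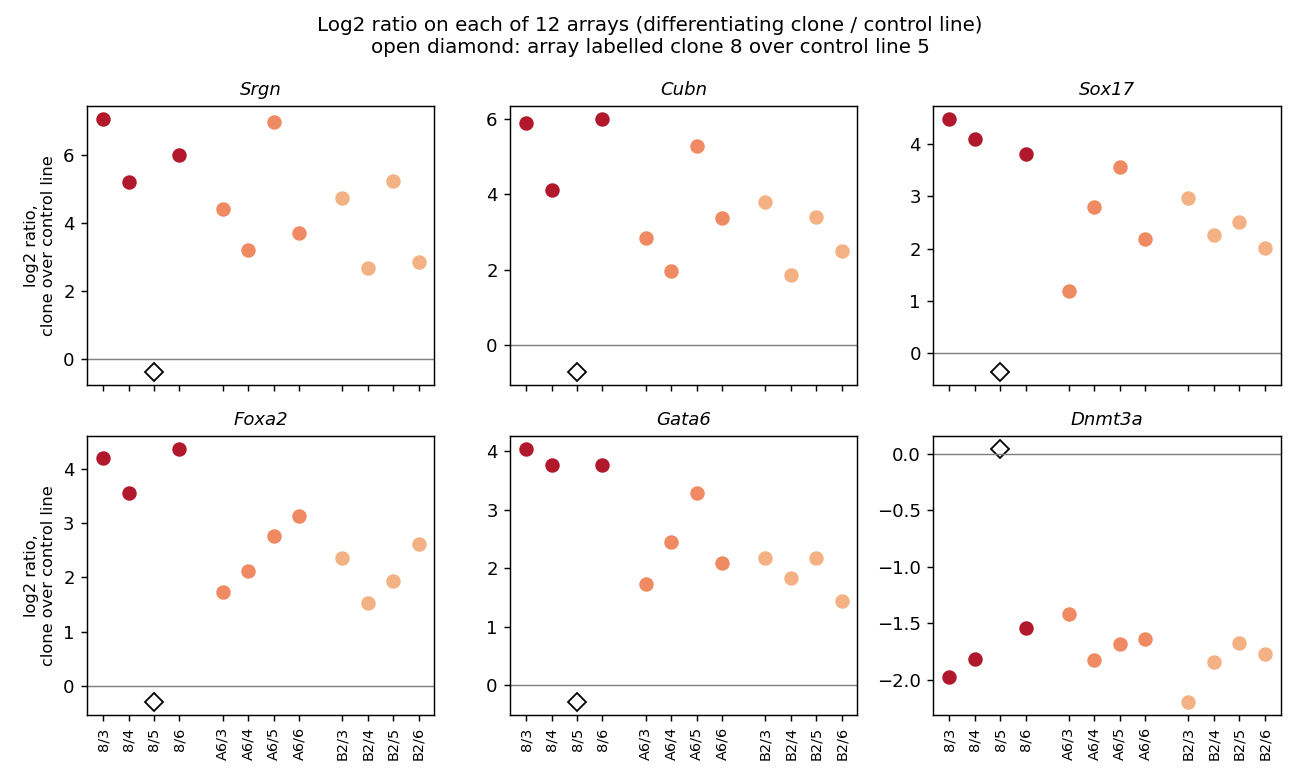
Log2 ratio of differentiating clone over control line (vertical axis) on each of the 12 arrays (horizontal axis, clone/line) for Srgn, Cubn, Sox17, Foxa2, Gata6 and Dnmt3a, with points coloured by clone. The open diamond is the array labelled clone 8 over line 5, at -0.38 for Srgn and 0.05 for Dnmt3a, apart from the other 11 arrays in all 6 panels.

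Over 24877 genes, 939 passed the test between the 3 clones and the 4 control lines with 12 arrays (3.77%), of which 435 were higher in the clones (1.75%) and 504 lower (2.03%). With 11 arrays 2216 passed (8.91%), 1093 higher (4.39%) and 1123 lower (4.51%). The 2 sets shared 919 genes, which were 97.9% of the first set and 41.5% of the second, each in the same direction. A gene passed at an adjusted p under 0.05 (limma, Benjamini-Hochberg over all genes, two-sided), and "rose" and "fell" are used below only for genes that did so. Changes were mostly small: 168 of the 939 genes differed by at least 1 log2 unit. With 11 arrays the 3 clones lay above all 4 lines in 12.1% of genes and below all in 11.1%. With each of the 12 arrays as a replicate and the clone, which is also the slide and the replicate number of the titles, as a block, 7812 genes passed, although these arrays reuse the same 7 RNAs. Each count leans on single RNAs. With 12 arrays, leaving out clone A6, clone B2, line 3 or line 4 left 0 genes past the test (2364 to 7243 genes at an unadjusted p under 0.05 over all such fits), leaving out line 5 left 272, clone 8 1771 and line 6 3582. With 11 arrays the fits without 1 RNA gave 7 genes without clone B2, 249 without A6, 272 without line 5 and 4663 without line 6.

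Dnmt3a itself was lower in every clone. Its log2 signal was 9.31 in clone 8, 9.43 in A6 and 9.20 in B2, against 11.15, 11.13, 10.99 and 10.96 in control lines 3 to 6. The groups did not overlap, and Dnmt3a fell by 1.67 ± 0.23 log2 units with 12 arrays (3.19-fold, adjusted p = 0.0361) and by 1.75 ± 0.07 with 11 (adjusted p = 0.00102); errors are standard errors (SE). Like every gene it missed the test with 12 arrays when clone A6, clone B2, line 3 or line 4 was left out (adjusted p = 0.501, 0.34, 0.162 and 0.137), and from the 11 arrays it missed without B2 (adjusted p = 0.0785). Its 3 probes, on mouse chromosome 12 between 3825243 and 3831024 (build mm7), gave -1.67, -2.57 and -0.82, and whether any lies in the deleted part is not stated. Dnmt3b did not pass on its probe, at 13.40, 13.15 and 13.17 in the clones and 13.42, 13.78, 13.94 and 12.42 in the lines (difference -0.17 ± 0.37, adjusted p = 0.88). That value turned on single lines: it was -0.49 without line 6 and 0.02 without line 5, past the test in neither case. A probe outside a deleted stretch would not report the deletion. Dnmt3l, a catalytically inactive partner of both enzymes, rose by 1.15 ± 0.22 with 12 arrays (adjusted p = 0.048) and by 1.19 ± 0.19 with 11 (adjusted p = 0.0179). Its levels were 15.12, 15.66 and 15.45 in the clones and at most 14.62 in the lines, line 6 being highest. Dnmt1, the maintenance enzyme, differed by 0.23 ± 0.11 and did not pass (adjusted p = 0.312).

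Transcription factors at the head of the endoderm programme were higher in all 3 clones. Gata6 reached a log2 signal of 13.08 in clone 8, 11.46 in A6 and 10.97 in B2, against 9.07, 9.12, 8.48 and 9.37 in control lines 3 to 6. Sox17 reached 12.48, 10.60 and 10.60 in the same clones, against 8.28, 8.15, 7.56 and 8.54 in the lines. Foxa2, a factor shared by visceral and definitive endoderm, stood at 12.89, 11.26 and 10.93, against 8.94, 9.30, 8.73 and 8.32. In each case clone 8 was the highest and the clones lay above all lines. Gata6 rose by 2.63 ± 0.34 log2 units (6.19-fold, adjusted p = 0.0361), Sox17 by 2.88 ± 0.34 (7.35-fold, adjusted p = 0.0361) and Foxa2 by 2.68 ± 0.47 (6.42-fold, adjusted p = 0.0415). With 11 arrays the values were 2.83 ± 0.51, 3.10 ± 0.51 and 2.87 ± 0.49, with adjusted p of 0.024, 0.019 and 0.0215. Hhex, a homeobox factor of anterior visceral endoderm, rose by 0.72 ± 0.13 (adjusted p = 0.0429). A dimmer Hhex probe gave 0.14. Gata4, the usual partner of Gata6, was at 8.40, 8.16 and 8.09 in the clones and at 8.03 to 8.09 in the lines, and its difference of 0.15 ± 0.06 did not pass (adjusted p = 0.223). A dimmer Gata4 probe, well above background in 12 clone channels but 8 control channels, gave 0.81.

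Of 17 endoderm transcription factors tested, 4 rose and 1 fell with 12 arrays, where 1.75% of all genes rose and 2.03% fell. With 11 arrays the list gave 5 and 1, beside 4.39% and 4.51% of all genes. The same shares over all genes hold for every list below. The median difference of the list was 0.13 with 12 arrays, against 0.0048 for all genes. Hnf4a, a regulator of liver and visceral endoderm, was at 8.54 to 8.56 in the clones and 8.45 to 8.54 in the lines, while its dimmer probe, above background in 12 clone and 6 control channels, gave 0.95. Sox7 (1.21 ± 0.53, adjusted p = 0.255) and Pdgfra (1.28 ± 0.43, adjusted p = 0.146), both primitive endoderm markers, were high in clone 8 but did not pass. Sox7 was at 10.79 in clone 8, 8.63 in A6 and 8.33 in B2, and at 9.06 in control line 6, above A6 and B2. The member that fell was Eomes, a factor of mesendoderm and trophoblast, by 0.45 ± 0.07 (adjusted p = 0.038). The probe taken for a gene was its brightest, and probes did not always agree in size: the other Gata6 probes gave 0.75 and 0.04, and those of Sox17 1.53 and 0.02. Without clone A6, clone B2 or line 5 none of these factors rose with 11 arrays, and Gata6 then differed by 2.98, 3.26 and 2.58 with adjusted p of 0.0751, 0.117 and 0.0942; without line 3 or line 4 1 factor rose.

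**Figure D2:**
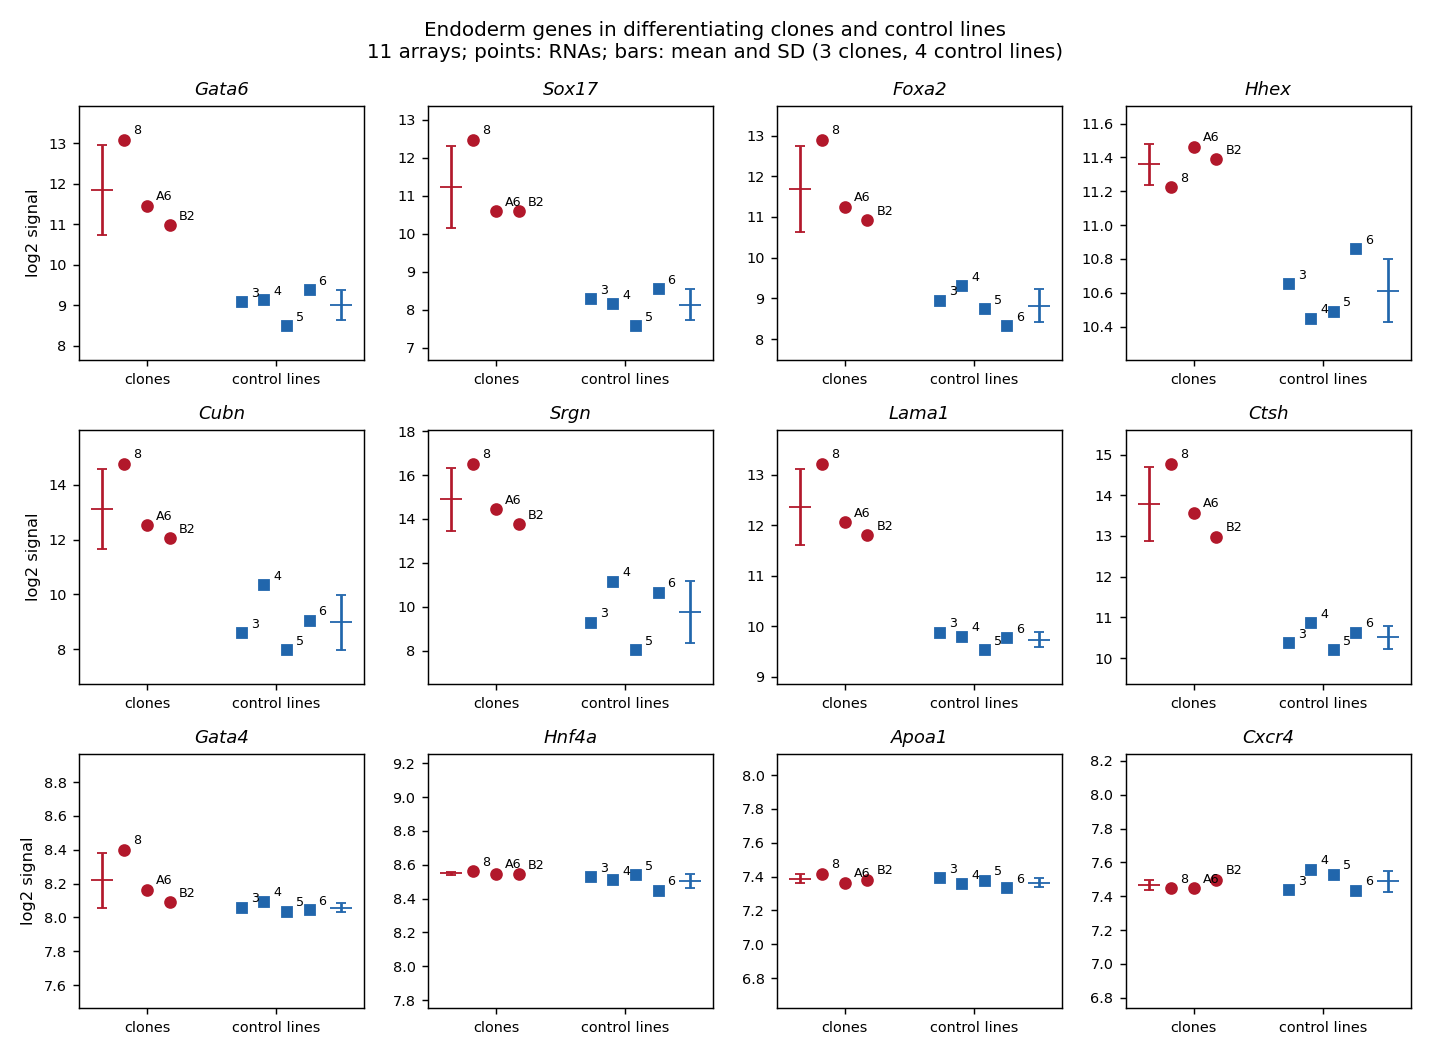
Log2 signal (vertical axes) of 12 endoderm genes in the 3 differentiating clones (circles) and the 4 control lines (squares), from 11 arrays, with bars for mean and SD. Clone 8 is highest for Gata6, Sox17, Foxa2, Cubn, Srgn, Lama1 and Ctsh, while Hnf4a, Apoa1 and Cxcr4 lie between 7.34 and 8.56 in every RNA.

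Genes of uptake and secretion in visceral endoderm rose in part. Cubn, which encodes the endocytic receptor cubilin, was at 14.77 in clone 8, 12.53 in A6 and 12.06 in B2, against 8.58, 10.34, 7.95 and 9.04 in control lines 3 to 6. It rose by 3.84 ± 0.58 log2 units (14.4-fold, adjusted p = 0.038) and by 4.14 ± 0.81 with 11 arrays (adjusted p = 0.0298). The clones did not overlap the lines, which themselves spread widely, line 4 being highest. Ctsh, the lysosomal protease cathepsin H, was at 14.77, 13.57 and 12.99 in the clones and 10.19 to 10.85 in the lines, and rose by 3.07 ± 0.40 (adjusted p = 0.0361). Clu, the secreted chaperone clusterin, rose by 2.03 ± 0.25 (adjusted p = 0.0361). These 3 were the members called among 29 tested with 12 arrays, and with 11 arrays 7 rose, none fell in either, and the list's median was 0.37 in both. The 4 added with 11 arrays were Apoc2, Apom and Rbp4, carriers of lipid or retinol in plasma, and Soat2, which esterifies cholesterol, at differences of 0.36 to 1.34. With 11 arrays and a further RNA left out, 1 member rose without A6, B2 or line 5, 2 without line 3, 3 without line 4 and 12 without line 6.

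The defining serum proteins of visceral endoderm did not pass the test or were too dim to be tested. Afp (alpha-fetoprotein) was at 7.61, 7.72 and 7.56 in the clones and 6.92 to 7.45 in the lines, and its difference of 0.48 ± 0.13 did not pass (adjusted p = 0.0852). Its signal was dim, and the clones lay above all lines, as in 12.1% of all genes with 11 arrays. Apoa1 and Apob also missed the test, and Ttr was not bright enough to be tested. Amn, the membrane partner of cubilin, was at 13.26 in clone 8, 11.11 in A6 and 10.67 in B2, against 9.18 to 9.88 in the lines, with a difference of 1.96 ± 0.46 (adjusted p = 0.0643). Dab2, an endocytic adaptor, gave 2.01 ± 0.44 (adjusted p = 0.0577). Lrp2, which encodes megalin, gave 0.66 ± 0.35 (adjusted p = 0.362), with A6 and B2 among the control lines. Of 26 genes of endosomes and lysosomes, 2 rose in each fit, Ctsh and Lgmn, the asparaginyl protease legumain (2.05 ± 0.32, adjusted p = 0.0388).

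Basement membrane and parietal endoderm genes gave the largest median shift of the 28 lists. Lama1, the laminin alpha chain of embryonic basement membranes, was at 13.21, 12.06 and 11.81 in clones 8, A6 and B2, against 9.88, 9.79, 9.53 and 9.76 in the lines. It rose by 2.46 ± 0.29 (5.52-fold, adjusted p = 0.0361) and by 2.62 ± 0.33 with 11 arrays (adjusted p = 0.0098). Srgn, which encodes serglycin, a proteoglycan of secretory granules that is also made by parietal endoderm, had the largest rise of any gene named here: 16.51, 14.45 and 13.75 in the clones against 9.28, 11.14, 8.01 and 10.63 in the lines. Its difference was 4.78 ± 0.58 (27.5-fold, adjusted p = 0.0361) with 12 arrays and 5.14 ± 0.95 with 11 (adjusted p = 0.0255). Pth1r, the parathyroid hormone receptor, rose by 1.65 ± 0.31 (adjusted p = 0.0461) and F3, tissue factor, by 0.98 ± 0.19 (adjusted p = 0.0468).

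Of 23 members tested in that list, 4 rose with 12 arrays and 7 with 11, none fell, and the median difference was 1.03 and 1.11. Lamc1, Col4a1 and Tfpi were the 3 added: Lamc1, the laminin gamma chain, differed by 1.27 ± 0.27 with 12 arrays (adjusted p = 0.0544) and Col4a1, a type IV collagen chain, by 2.11 ± 0.43 (adjusted p = 0.0509). Their partners Lamb1 (1.64 ± 0.39, adjusted p = 0.0664) and Col4a2 (1.25 ± 0.32, adjusted p = 0.0788) missed the test in both fits, with no overlap between clones and lines. All 7 called members were highest in clone 8. The median of the list stood 2.11 above the mean of the control lines in clone 8, 0.88 in A6 and 0.53 in B2. Sparc, a collagen-binding protein common to fibroblasts and parietal endoderm, gave 0.97 ± 0.31 (adjusted p = 0.131). Plat, another marker fixed for parietal endoderm, gave 0.41 and did not pass in either fit. Thbd, also fixed for this type, went the other way and did not pass in either fit. Under the other settings of the fit its difference lay between -0.85 and -0.32. Fibroblast genes as a list were lower in the clones, as given below. With 11 arrays no member of the list rose without clone B2 or line 5, 1 rose without A6 or line 3, 2 without line 4 and 12 without clone 8.

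The list of definitive endoderm genes gave no common direction. Of 16 tested, 1 rose and 1 fell in both fits, beside a list median of 0.0038 with 12 arrays. Foxa2 and Sox17, which rose, are counted with the endoderm transcription factors and are not in this list. Over all genes 1.75% rose and 2.03% fell with 12 arrays, and 4.39% and 4.51% with 11. Kit, a growth factor receptor, rose by 0.39 ± 0.07 (adjusted p = 0.0443) and Trh, the precursor of thyrotropin-releasing hormone, fell by 0.75 ± 0.13 (adjusted p = 0.0411). Cxcr4, a chemokine receptor used to sort definitive endoderm, was at 7.45 to 7.50 in the clones and 7.43 to 7.56 in the lines. Gsc, an organizer homeobox gene, was at 8.26, 8.73 and 8.85 in the clones and 8.26 to 8.35 in lines 3 to 5, with line 6 at 9.13. Summed over the 5 markers fixed for this type, the signal was 12.2 to 13.4 (log2) in the clones and 12.1 to 12.4 in the lines. For primitive endoderm the sum was 12.6 to 14.6 in the clones and 10.8 to 11.3 in the lines, and for visceral endoderm 12.7 to 15.2 and 10.7 to 11.6. Signals were added before the log was taken, so the brightest markers carry each sum. In clone 8 these were Cubn and Amn for visceral endoderm and Foxa2 for definitive endoderm. The sums do not speak for dim markers such as Afp or Cxcr4. In bulk RNA, more cells of a type and more RNA per cell cannot be told apart.

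Among the 14 largest named rises, several lay outside the endoderm lists. Hkdc1, a hexokinase-domain protein, had the next largest rise after Srgn: 14.31, 12.61 and 12.27 in clones 8, A6 and B2, against 8.84, 9.09, 8.35 and 9.16 in the lines. It rose by 3.94 ± 0.44 (15.4-fold, adjusted p = 0.0361) and by 4.20 ± 0.50 with 11 arrays (adjusted p = 0.00868). Hs3st1, a sulfotransferase that finishes heparan sulfate chains, rose by 3.04 ± 0.43 (adjusted p = 0.0378), and Slco2a1, a prostaglandin transporter, by 2.43 ± 0.28 (adjusted p = 0.0361). Aqp8, a water channel, rose by 2.18 ± 0.41 with 12 arrays (adjusted p = 0.0454) but not with 11 (2.37 ± 0.60, adjusted p = 0.0622). Dll1, a Notch ligand, kept another order among the clones: 11.52 in clone 8, 11.75 in A6 and 11.93 in B2, against 9.25 to 9.53 in the lines. Its rise of 2.30 ± 0.11 with 11 arrays had one of the smallest adjusted p, 0.00128, and it was 2.21 ± 0.32 with 12 (adjusted p = 0.038). Clone 8 was the highest clone in 12 of the 14 genes and B2 in 2, and 13 of the 14 differed among the 3 clones with 11 arrays (F test, adjusted p under 0.05, where 34.4% of all genes did, and 14.6% with 12 arrays). Each clone was read on a slide of its own, so clone and slide cannot be told apart.

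Hkdc1 and Srgn lie close together on mouse chromosome 10. In the RefSeq order of genes 3 measured genes stand between them: Supv3l1 (0.08, adjusted p = 0.488), 4930507D05Rik (-0.03, adjusted p = 0.644) and Vps26a (0.43, adjusted p = 0.0461). On the other side of Hkdc1, Hk1, a hexokinase, gave 0.42 with 12 arrays (adjusted p = 0.0571) and 0.44 with 11 (adjusted p = 0.011). The rises of the outer pair were thus far larger than those of the genes between. Both are shown here by the 250 bases before their annotated starts, since they carry the largest rises, with CG pairs in capitals (RefSeq, GRCm38.p6, 5′ to 3′). Hkdc1 is at chr10:62422458-62422707 and Srgn at chr10:62527446-62527695, both on the minus strand.
Hkdc1: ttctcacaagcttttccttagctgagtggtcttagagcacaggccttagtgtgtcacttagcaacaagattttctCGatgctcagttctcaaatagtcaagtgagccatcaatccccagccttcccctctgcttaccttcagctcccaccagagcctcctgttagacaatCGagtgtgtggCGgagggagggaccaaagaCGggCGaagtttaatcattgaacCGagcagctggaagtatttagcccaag
Srgn: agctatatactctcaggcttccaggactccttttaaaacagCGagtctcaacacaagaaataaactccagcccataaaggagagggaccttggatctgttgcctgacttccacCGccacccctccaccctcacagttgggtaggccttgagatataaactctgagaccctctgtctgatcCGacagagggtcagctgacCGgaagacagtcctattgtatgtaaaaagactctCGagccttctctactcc
The printed windows hold 6 and 5 CG pairs, close to the median of 6 over all 32841 windows. Another annotated start of Srgn, with its window at chr10:62507758-62508007, is not printed and holds 3. The letters AGATAA, which Gata factors can bind, searched on both strands, were in none of these windows. They were in 1 of 15 windows of the largest rises, that of Foxa2, and in 9.99% of all windows.

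The pluripotency network passed the test in no member with 12 arrays. Pou5f1 was at 14.52, 14.56 and 14.46 in the clones and 14.45 to 14.79 in the lines, a difference of -0.12 ± 0.08 (adjusted p = 0.512). Sox2 differed by 0.00 ± 0.14 (adjusted p = 0.996). Nanog was lowest in clone 8, at 11.49 against 12.21 in A6 and 12.33 in B2, with the lines at 12.45 to 13.01, and its difference of -0.54 ± 0.24 did not pass (adjusted p = 0.266). Of 31 members tested none passed with 12 arrays, and with 11 arrays Myc and Mybl2, regulators of growth and the cell cycle, were the 2 that fell (Myc by 0.88 ± 0.15, adjusted p = 0.0193). The list stood at -0.31 in clone 8, -0.05 in A6 and 0.02 in B2 relative to the lines. Summed over 4 markers the pluripotent signal was 15.44 to 15.58 (log2) in the clones and 15.47 to 15.75 in the lines, so the 2 ranges overlapped. Genes of primed epiblast had a median of -0.32, with none of 21 past the test with 12 arrays and Fgf8 lower with 11. Control line 6 had the same direction, at -0.41, and the clones lay between -0.41 and -0.25.

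Several ligands and targets of Wnt signalling fell, though most members of the list did not pass. Sp5, a direct target of Wnt signalling, was at 9.52, 9.70 and 9.19 in clones 8, A6 and B2, against 11.39, 12.06, 11.88 and 11.32 in the lines. It fell by 2.11 ± 0.26 (adjusted p = 0.0361) and by 2.19 ± 0.22 with 11 arrays (adjusted p = 0.0061). Wnt3, a ligand needed for gastrulation, was at 7.06, 7.16 and 7.28 in the clones and 8.01 to 8.71 in the lines, and fell by 1.23 ± 0.17 (adjusted p = 0.0371). Wnt8a fell by 1.21 ± 0.22 (adjusted p = 0.0433) and Tnfrsf19, a Wnt-responsive receptor, by 1.06 ± 0.18 (adjusted p = 0.0411). The other Tnfrsf19 probe, dimmer but well above background on all 12 arrays, gave -0.04. Wnt3 and Wnt8a were well above background on 11 of 12 arrays in the clone channel. Of 30 members tested 5 fell and none rose with 12 arrays, and 8 fell and 1 rose with 11 (Nkd2, an inhibitor, by 0.64 ± 0.13), with a list median of -0.20 and -0.21. With 11 arrays none fell without clone B2, 2 fell without A6 or line 5, and 13 fell without line 6.

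Nodal and Fgf signalling gave fewer calls. Lefty1, a secreted Nodal inhibitor and target, was at 13.50, 13.61 and 14.14 in the clones and 14.79 to 15.06 in the lines, and fell by 1.14 ± 0.17 (adjusted p = 0.038). It was the 1 call among 24 genes of that pathway with 12 arrays, and 3 fell with 11. Nodal itself (-0.45 ± 0.10, adjusted p = 0.0564) and Inhba, an activin subunit (-1.50 ± 0.43, adjusted p = 0.106), fell with 11 arrays, by 0.48 and 1.60. Of 24 Fgf pathway genes, 2 rose and 1 fell with 12 arrays, and 2 and 3 with 11. Fgfr4, a receptor of endoderm, rose by 0.99 ± 0.15 (adjusted p = 0.038) on its brightest probe. Its other probes, well above background on all 12 arrays, gave 0.04 and 0.16. The ligand Fgf17 fell by 0.42 ± 0.08 (adjusted p = 0.0461). Fgf8, a ligand of the gastrula, was at 8.96, 9.47 and 9.46 in the clones and at 11.24, 12.23, 12.15 and 10.26 in lines 3 to 6. Its difference of -2.09 ± 0.42 missed the test with 12 arrays (adjusted p = 0.0513) and passed with 11 (-2.17 ± 0.50, adjusted p = 0.046).

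**Figure D3:**
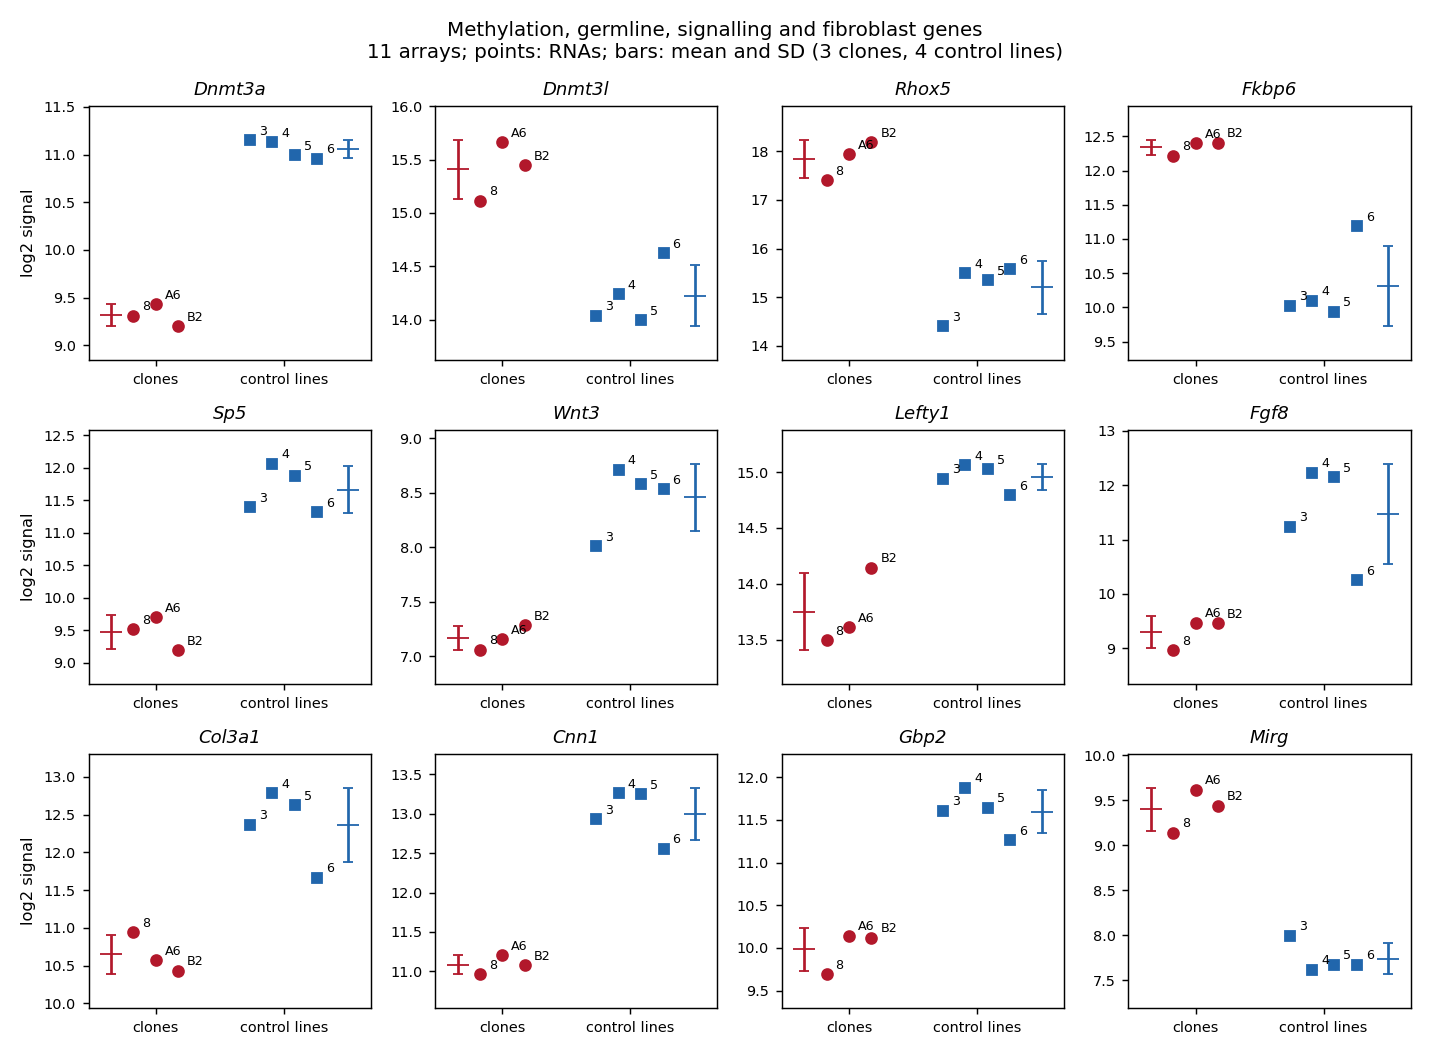
Log2 signal (vertical axes) of 12 genes of methylation, the germline, signalling and fibroblasts in the 3 differentiating clones (circles) and the 4 control lines (squares), from 11 arrays, with bars for mean and SD. Clones and lines do not overlap in any of these panels, whose genes were taken from those that passed the test. Over all genes 12.1% lay higher and 11.1% lower without overlap. Line 6 lies nearest the clones for Fkbp6 (11.19), Fgf8 (10.26) and Col3a1 (11.67).

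Fibroblast genes were the list with the most falls. Of 46 tested, 15 fell and none rose with 12 arrays, and 24 fell with 11, with a median of -0.72 and -0.74. Col3a1, a fibrillar collagen, was at 10.94, 10.57 and 10.43 in the clones and 12.36, 12.79, 12.63 and 11.67 in lines 3 to 6, and fell by 1.67 ± 0.30 (adjusted p = 0.0435). Its dimmer probes gave -0.02 and 0.03. The contractile genes Cnn1 and Tagln fell by 1.84 ± 0.19 (adjusted p = 0.0361) and 1.36 ± 0.26 (adjusted p = 0.0468). Igfbp3, which binds insulin-like growth factors, fell by 1.82 ± 0.24 (adjusted p = 0.0361). Col1a1 differed by -1.31 ± 0.30 with 12 arrays (adjusted p = 0.0635) and passed with 11. Clone B2 lay farthest from the lines and clone 8 nearest, whereas clone 8 lay farthest in the visceral and parietal endoderm lists. The list median was -0.58 in clone 8, -0.68 in A6 and -0.93 in B2, and B2 was farthest from the lines in 17 of the 24 called genes.

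The control lines were not alike in these genes, with list medians of -0.01, 0.26, 0.03 and -0.26 in lines 3 to 6. Summed over 5 fibroblast markers (Col1a1, Col3a1, Dcn, Thy1 and Postn) the signal was 13.9 to 14.5 (log2) in the clones and 14.7 to 15.7 in the lines. Feeders had been present in all cultures. In the same clones without signs of differentiation 23 of the 24 genes were lower than in MEF, and the median of the whole list was -3.77. The list was chosen as fibroblast genes, so values below MEF were set by that choice. The part of remaining feeder cells in these falls was not tested. With 11 arrays none of the list fell without clone B2, 2 fell without A6 or line 5, 8 without line 3 or line 4, and 36 without line 6.

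Markers of other cell types gave few calls, where 1.75% of all genes rose and 2.03% fell with 12 arrays (4.39% and 4.51% with 11). Summed over 3 blood markers the signal was 9.54 to 9.56 in the clones and 9.50 to 9.56 in the lines. The endothelial sum was 9.87 to 10.1 in the clones against 9.71 to 9.92 in the lines, the neural 9.78 to 10.1 with the lines from 9.48 upwards and overlapping, the mesoderm 9.98 to 10.1 against 9.74 to 10.1 and the trophoblast 9.79 to 9.87 against 9.82 to 10.2. Of 26 mesoderm genes 1 fell with 12 arrays, Eomes, and with 11 arrays T (brachyury) also fell, by 0.62 ± 0.13, and Etv2, a factor of blood and vessel precursors, rose by 0.42 ± 0.09. Of 24 neural and ectoderm genes 1 fell in both fits, Nes, an intermediate filament protein (-0.73 ± 0.10, adjusted p = 0.0361), and with 11 arrays Neurod1, a neuronal and pancreatic factor, rose by 1.22 ± 0.24 (adjusted p = 0.0315). Of 25 trophoblast genes none passed with 12 arrays and Ets2 fell with 11, by 0.41 ± 0.06. Of 24 blood and endothelium genes Cd68, a lysosomal protein of macrophages, rose by 0.67 ± 0.07 (adjusted p = 0.0361), and with 11 arrays Sox18, an endothelial factor, also rose, by 0.66 ± 0.14.

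**Figure D4:**
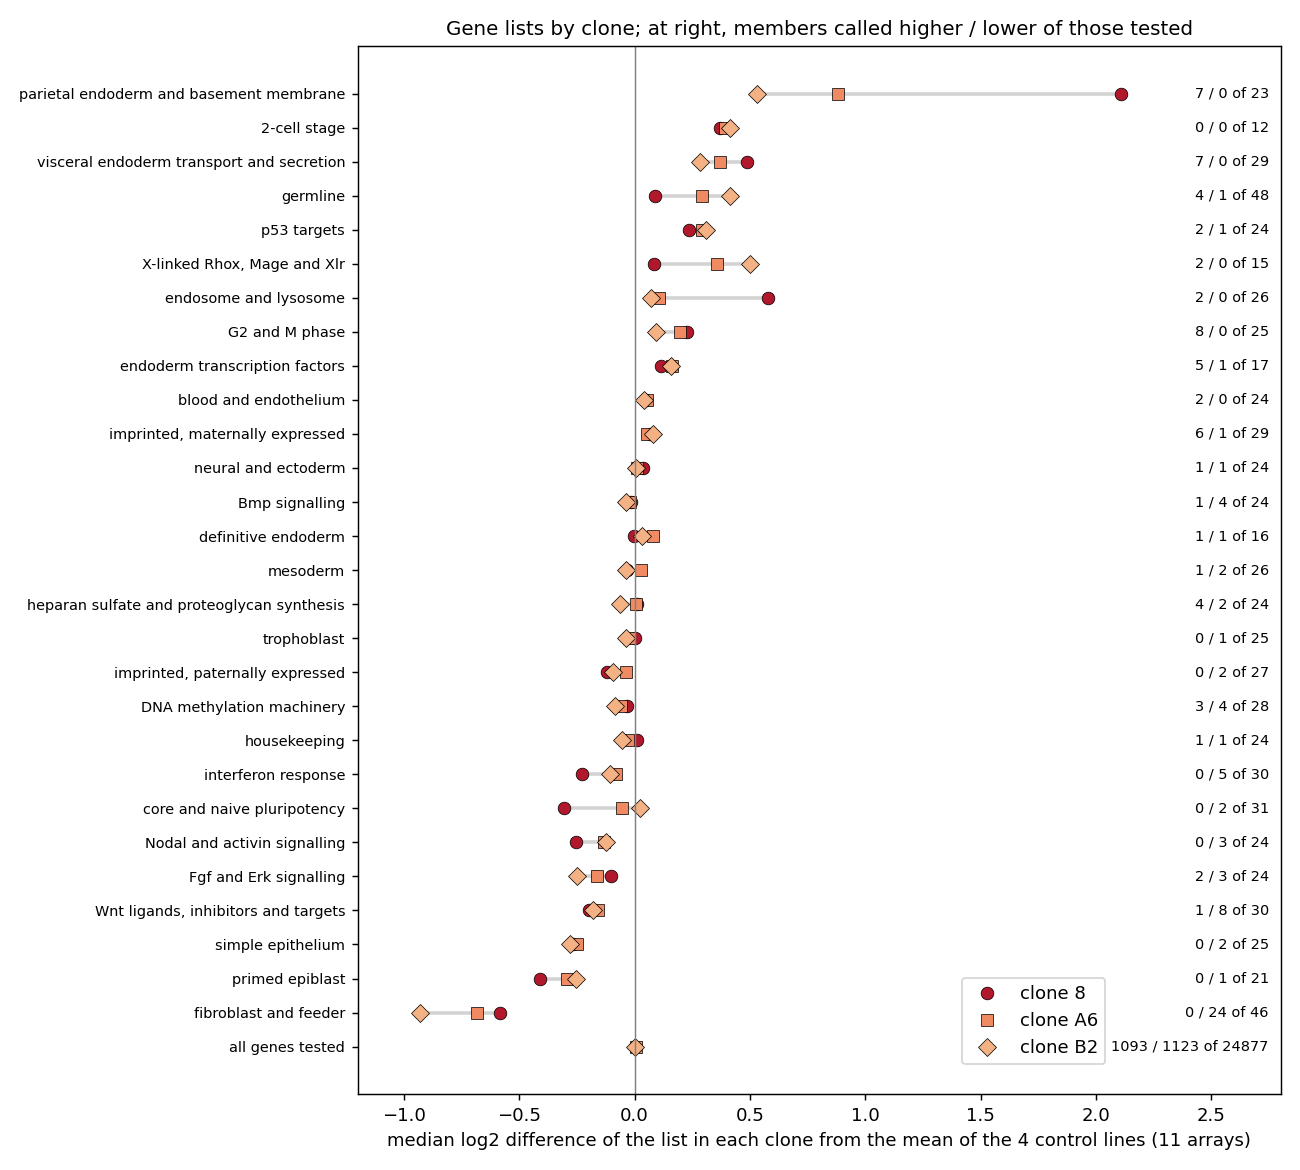
Median log2 difference of each gene list in the 3 differentiating clones from the mean of the 4 control lines (horizontal axis), from 11 arrays, with the number of members called higher and lower at right. Parietal endoderm and basement membrane genes stand highest, at 2.11 in clone 8 and 0.53 in B2, and fibroblast genes lowest, at -0.58 in clone 8 and -0.93 in B2.

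Genes of the germline and of the X-linked Rhox cluster, several of which are held silent by promoter methylation in somatic cells, rose in a few members. Rhox5, an X-linked homeobox gene, was at 17.41, 17.94 and 18.18 in clones 8, A6 and B2, against 14.40, 15.49, 15.35 and 15.57 in the lines, and rose by 2.56 ± 0.48 (adjusted p = 0.045). Fkbp6, a co-chaperone of the piRNA pathway, was at 12.22, 12.40 and 12.41 in the clones and at 10.03, 10.10, 9.93 and 11.19 in the lines. It rose by 1.94 ± 0.35 (adjusted p = 0.0429) and by 2.03 ± 0.31 with 11 arrays (adjusted p = 0.0156). Stag3, a meiotic cohesin subunit, rose by 1.09 ± 0.17 (adjusted p = 0.0397) and Piwil4, a piRNA-binding protein, by 1.42 ± 0.28 (adjusted p = 0.0497). Tdrd1, a Tudor-domain protein of the same pathway, fell by 0.96 ± 0.15 (adjusted p = 0.0397). Dimmer probes of Piwil4 and Tdrd1, not above background in every channel, gave -0.04 and -0.06. Of 48 germline genes tested 3 rose and 1 fell with 12 arrays, and 4 and 1 with 11. Of 15 X-linked genes of the Rhox, Mage and Xlr families 1 rose with 12 and 2 with 11. Over all genes 1.75% rose and 2.03% fell with 12 arrays, and 4.39% and 4.51% with 11. The single germline fall is near the share of all genes.

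The germline list had a median of 0.29 with 12 arrays, and clone B2 was farthest from the lines (0.41) and clone 8 nearest (0.09). Control line 6 stood apart from the other lines in this list too, at 0.28 against -0.09 to -0.05. Dazl, an RNA-binding protein of germ cells, was at 9.55, 10.93 and 10.79 in the clones and at 8.48, 8.29, 8.21 and 10.29 in the lines, and its difference of 1.58 ± 0.61 did not pass (adjusted p = 0.204). With line 6 left out, 19 of the germline genes and 7 of 12 genes of the 2-cell stage rose with 11 arrays, where 4663 genes passed over all; without A6 or B2 none of the germline genes rose. With all lines none of the 2-cell genes passed. Rhox5 and Rhox2a belong to a family that includes close copies, and whether their probes tell its members apart was not checked. Rhox2a differed by 2.50 ± 0.65 (adjusted p = 0.0813) with 12 arrays and passed with 11.

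Of the 6 windows of germline genes that rose with 11 arrays, 5 hold 10 or more CG pairs. The window of Stag3 is printed here as a CG-rich case and that of Cubn, an endoderm gene, as a CG-poor one (250 bases before the start, RefSeq, GRCm38.p6, 5′ to 3′, CG in capitals). Stag3 is at chr5:138280259-138280508 on the plus strand and Cubn at chr2:13491877-13492126 on the minus strand.
Stag3: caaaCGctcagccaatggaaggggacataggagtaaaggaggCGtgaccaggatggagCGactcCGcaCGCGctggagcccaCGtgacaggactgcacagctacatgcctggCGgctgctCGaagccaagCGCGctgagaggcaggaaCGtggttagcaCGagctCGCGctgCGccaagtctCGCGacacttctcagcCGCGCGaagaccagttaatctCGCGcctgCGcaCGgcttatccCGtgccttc
Cubn: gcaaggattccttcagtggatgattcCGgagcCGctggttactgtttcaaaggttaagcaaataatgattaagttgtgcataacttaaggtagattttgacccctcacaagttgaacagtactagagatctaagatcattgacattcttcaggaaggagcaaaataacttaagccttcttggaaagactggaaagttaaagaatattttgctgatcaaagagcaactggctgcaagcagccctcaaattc
Stag3 holds 26 CG pairs and Cubn 2, and the 2 windows of Fkbp6 hold 17 and 29. Over the germline list 72.2% of 54 windows hold 10 or more, against 37.8% of all windows. The 15 windows of the largest rises had a median of 6, and the 15 of the largest falls 11. No methylation was measured in this study's arrays, and CG content is a description of these windows only.

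Among imprinted genes the largest rises lay in the Dlk1-Dio3 cluster. Mirg, a maternally expressed host transcript of small RNAs there, was at 9.14, 9.61 and 9.44 in the clones and at 7.99, 7.62, 7.67 and 7.67 in the lines. It rose by 1.59 ± 0.24 (adjusted p = 0.038) and by 1.66 ± 0.14 with 11 arrays (adjusted p = 0.0044). Its neighbours Meg3 (1.38 ± 0.30, adjusted p = 0.0576) and Rian (1.56 ± 0.35, adjusted p = 0.0618), also maternally expressed, missed the test with 12 arrays and passed with 11. Of 29 maternally expressed genes 3 rose with 12 arrays and 6 rose and 1 fell with 11. Slc22a18, an organic cation transporter, rose by 0.90 ± 0.14 (adjusted p = 0.0397), and Cdkn1c, a cell cycle inhibitor of the same domain, by 0.53 ± 0.08 with 12 arrays (adjusted p = 0.038) but not with 11 (adjusted p = 0.064). The other Slc22a18 probe, well above background on all 12 arrays, gave 0.13. Of 27 paternally expressed genes none passed with 12 arrays and 2 fell with 11, the growth factor Igf2 and Snrpn.

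The remaining large falls mixed several functions. Fndc3c1 had the largest, at 8.51 in clone 8, 8.61 in B2 and somewhat higher in A6, against 10.87, 11.51, 11.43 and 9.89 in the lines (-2.13 ± 0.37, adjusted p = 0.0411). Kif1a, a kinesin motor of axonal transport, was at 10.08 or less in the clones and at 11.61 to 12.06 in the lines, and fell by 1.77 ± 0.18 (adjusted p = 0.0361). Perp, a p53 target of desmosomes, fell by 1.71 ± 0.28 (adjusted p = 0.0411), while Tnfrsf10b, a death receptor and p53 target, rose by 0.85 ± 0.16 (adjusted p = 0.0443). Among 24 p53 targets these were the 2 calls with 12 arrays. With 11 arrays 2 rose and 1 fell, where 4.39% of all genes rose and 4.51% fell. Of 30 interferon response genes 3 fell with 12 arrays and 5 with 11. Psmb8, an immunoproteasome subunit, was at 8.82, 9.81 and 9.32 in the clones and at 10.49 to 11.61 in the lines, and fell by 1.76 ± 0.32 (adjusted p = 0.043). Gbp2, a guanylate-binding protein, fell by 1.54 ± 0.20 (adjusted p = 0.0361). Lyz2, a lysozyme, and Ltb, a lymphotoxin, fell by 1.65 ± 0.19 (adjusted p = 0.0361) and 1.75 ± 0.29 (adjusted p = 0.0411). A dimmer Lyz2 probe gave -0.06.

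Smaller differences appeared in growth and surface chemistry. Of 24 genes of heparan sulfate and proteoglycans 3 rose and 1 fell with 12 arrays, and 4 and 2 with 11. With 12 arrays Hs3st1 and the cell-surface core proteins Sdc4 and Gpc3 rose, and Ndst1, a sulfotransferase, fell. Of 25 genes of G2 and M phase 1 rose with 12 arrays, Top2a (topoisomerase II) by 0.31 ± 0.05 (adjusted p = 0.0415), and 8 rose with 11, by at most 0.55 log2 units. Of 24 Bmp pathway genes 1 rose and 1 fell with 12 arrays, and 1 and 4 with 11. Of 25 simple epithelium genes none passed with 12 arrays and 2 fell with 11. Of 24 housekeeping genes 1 rose in both fits (Chmp2a), and 1 fell with 11. Single calls in these lists are close to the shares over all genes (1.75% and 2.03% with 12 arrays, 4.39% and 4.51% with 11).

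Distances from the control lines differed among the clones. The SD over all genes of a clone's difference from the mean of the lines was 0.367 in clone 8, 0.296 in A6 and 0.309 in B2. Each line's SD from the same mean, which holds that line itself and so cannot be set against the clones, was 0.111, 0.106 and 0.112 in lines 3 to 5 and 0.260 in line 6. More than 1 log2 unit separated 614 genes of clone 8, 357 of A6 and 434 of B2 from that mean, while among the lines 186 genes of line 6 did so and 6 to 12 of each other line. The Y-linked gene Eif2s3y was at 12.86 in clone 8, 8.28 in A6 and 7.83 in B2, and at 12.09, 11.99, 12.38 and 8.05 in lines 3 to 6, so that A6, B2 and line 6 read low.

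The same clones without signs of differentiation give a side view, on 3 arrays each over single RNAs of V6.5 ESC and of MEF, with no test. Over ESC, Gata6 was at 0.17 ± 0.84 (SD, n = 3), Srgn at 0.89 ± 1.81, Lama1 at 0.28 ± 0.78 and Hkdc1 at 0.63 ± 1.02 log2 units. The spread over the 3 clones exceeded each of these means, and the corresponding differences of the differentiating clones from the control lines were 2.83, 5.14, 2.62 and 4.20 with 11 arrays. Rhox5 stood at 2.48 ± 0.38 over ESC and 2.64 over the control lines, and Dnmt3a at -1.82 ± 0.78 and -1.75. Sp5 stood at 0.66 ± 0.87 over ESC, while it fell by 2.19 against the control lines, and Lefty1 at 1.84 ± 0.47, while it fell by 1.20. Zfp42, a naive pluripotency marker, was at -2.65 ± 0.45 over ESC and did not pass against the control lines (0.15, adjusted p = 0.743). These arrays were scanned on another day, and their references are other cells, so the values stand side by side with no test of their difference.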

How the data were processed

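Per the file headers, spots were read with Agilent Feature Extraction, whose files hold each dye's mean intensity and its local background, neither of them normalized, beside processed intensities (an alternative here) and a log10 ratio, which was not used. The deposited value table held the authors' log2 ratios of unstated scale and direction, and it served as an alternative. Its columns correlated at 0.851 to 0.997 with the ratios computed here, and their medians lay between -0.0108 and 0.00733. The 0.851 was that of clone A6 over line 3. Among the 11 arrays, its ratios computed here had the smallest SD (0.248) and the lowest median of the 5 endoderm genes (1.74). The submitters' processing notes name limma without a version. Here intensities were background-corrected (normexp, offset 50) and loess-normalized within arrays in limma 3.58.1 (R 4.3.3, with the data.table package at 1.17.8). A probe had to exceed background clearly in a share of 0.5 or more of the clone channels or of the control channels, which 36755 of 41174 did, and a gene was its brightest probe. Names came by accession for 14898 genes, by symbol for 2541 and by synonym for 1273, and 6165 kept the files' name. Probe positions are the files' (mm7). Loess centres each array, so a change in total RNA cannot be seen, and the number of arrays limits the precision. Per channel, 75.1% to 92.3% of probes cleared the background.

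The log2 ratios of each gene were resolved by least squares into 3 clone values, 4 line values and a dye term, and limma compared the 3 with the 4, two-sided. Nothing in the labels says that clones or lines came from repeated cultures, so p-values measure the spread between these 7 RNAs. Levels are log2 signals, each array's average split by the difference. The dye term passed in 27.5% of genes. The title's replicate number marks the clone, and also the slide; the 12 arrays were scanned on the same day. A clone F test compared the 3 clones over arrays.

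Earlier results of these data were known when the members, the gene lists and the naming rule were chosen, and likewise for the fit with 11 arrays. For named genes the rule took the 4 Dnmt genes, Pou5f1, Nanog, Sox2, the cell type markers, the 14 largest rises and the 14 largest falls among called genes with no overlap, up to 4 called members of each list, and the 5 called genes with the widest range over the clones; other list members are examples chosen after their values were seen, as were the neighbours of Hkdc1 and Eif2s3y. Promoter windows came from RefSeq; 10 of the 14 largest rises and 12 of the 14 largest falls matched. The fits were tested on simulated data. Alternatives were other background, within-array and filter settings, the deposited table, the processed signals, other replicate units, no dye term, a single dye orientation, separate channels and each RNA left out.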

Additional observations from a re-analysis of the deposited data

Results flagged for a closer look

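The array labelled clone 8 over control line 5 lay far from the other 3 arrays of clone 8: the median log2 ratio of the 5 endoderm genes was -0.37 against 4.11 to 4.49, and its correlation across genes with its labelled pair was 0.08 against 0.9 to 0.93. Whether other RNA was hybridised there was not tested. It enters the fit behind the levels that follow, which are those of the 12 arrays.

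In 7 genes a single control line lay far from the other 3. Lama1 was highest in line 5, at 10.61 against 9.48 to 9.61, whereas with 11 arrays line 5 was the lowest, at 9.53. Gsc was highest in line 6, at 9.15 against 8.2 to 8.34. Wnt8a was highest in line 4, at 9.02 against 8.13 to 8.27. Etv1, an Ets factor downstream of Fgf signals, was lowest in line 4, at 10.23 against 10.3 to 10.31. Dazl was highest in line 6, at 10.27 against 8.26 to 8.43. Myc was lowest in line 5, at 11.35 against 11.86 to 11.91, and with 11 arrays line 5 was at 11.73, among the others. Etv2 was highest in line 5, at 9.99 against 9.65 to 9.7. With 145 groups examined, chance alone sets about 1 group in 20 apart in this way.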

How the results depend on the processing

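The count of 939 genes stayed within 1.5 times under other background, centring, filter and probe settings and with the deposited table (755 to 1136). Centring on the median without loess put 35% of calls on the higher side, against 46.3%. It moved to 7283 with arrays as replicates, 7040 with the clone as a random block, 7812 with the clone as a fixed replicate block, 539 without a dye term, 19 with 9 arrays of the same dye, 2216 with 11 arrays and 0 to 3582 with 1 RNA left out (7 to 4663 from the 11 arrays). The clone F test, 3622 genes, gave 8560 with 11 arrays, 5884 with the deposited table, 5897 without background correction, 191 median-centred, 1397 without a dye term, 485 with 9 arrays, and 0 to 8433 or 1356 to 10274 with 1 RNA left out. The dye term, 6835 genes, gave 17288 median-centred and 0 to 8519 or 0 to 11094 with 1 RNA left out. Dnmt1 (0.22) passed with arrays as replicates and with either block. Dnmt3a missed at -1.55 with 9 arrays and, at -1.76 to -1.57 with 1 RNA left out, missed without A6, B2, line 3 or line 4 (from 11 arrays -1.81 to -1.68, missing without B2). Dnmt3b was -0.49 to 0.02, not called. Dnmt3l missed at 1.07 median-centred, 1.20 without a dye term, 1.15 without the dim filter, 1.26 with 9 arrays and 1.13 with separate channels, and, at 0.92 to 1.35 (1.04 to 1.35) with 1 RNA left out, passed in either case only without clone 8 or line 6. No called result reversed in direction. The cause of these changes was not tested.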

Other observations

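Over 1186 genes of chromosome 8, the median difference from the mean of the 3 clones was 0.06 log2 units in clone 8, -0.03 in A6 and -0.04 in B2, and the median difference from the mean of the 4 lines was 0.04 in control line 3. The cause was not tested. The control lines were not a uniform group: line 6 differed from the mean of the lines in the germline (0.28), 2-cell stage (0.45) and fibroblast (-0.26) lists, in the direction of the clones in each (germline 0.09 to 0.41, 2-cell stage 0.37 to 0.41, fibroblast -0.93 to -0.58).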
